A study of Mus musculus with 2 samples.

Results

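The serum amyloid A family was examined in RNA-seq of whole omenta from mice given diphtheria toxin (DT). The family was taken as every gene in the expression tables with the symbol Saa1, Saa2, Saa3 or Saa4, which gave 4 genes of the 24346 listed. The family was selected on its FPKM values (defined below), which were much higher in the Postn-DTR library than in the WT library, so that difference is given as a description and not as a test. The study compared WT mice with Postn-DTR mice, which are Postn Dtr/+ heterozygotes on a C57BL/6 background. In these heterozygotes a diphtheria toxin receptor was targeted into the Postn gene, so that DT kills cells that use the Postn promoter, among them the Aldh1a2+ fibroblastic reticular cells (FRCs) of omental milky spots. Both groups received DT, and omenta were taken 5 days later. Each genotype was measured with 1 library, and the labels give neither the number of mice behind a library nor their age and sex. The Postn promoter is also active in other cell lineages and outside the omentum, which limits the model as one of omental FRCs alone.

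Serum amyloid A proteins are small secreted apolipoproteins of the acute-phase response. Saa1 and Saa2 are made mainly by hepatocytes when cytokines of the IL-1 and IL-6 families reach the liver, and their products travel in blood on high-density lipoprotein (HDL). Saa3 is the member known for expression outside the liver, in adipose tissue, macrophages and epithelia, and Saa4 is known in liver as a constitutive member. The proteins attract leukocytes and have been described as carriers of retinol, the precursor of the retinoic acid that Aldh1a2+ FRCs make.

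The expression tables gave FPKM, the fragments of a gene corrected for transcript length and for the mapped fragments in the library, a level per length that can be compared between genes. All FPKM values of the WT library added up to 542190 and those of Postn-DTR to 671882. The depth behind them was not given. Low values placed the denominator of FPKM at about 23300000 fragments in WT and 24100000 in Postn-DTR, which is taken as the depth below. Whether a scaling between the libraries entered it was not known. Postn, the targeted gene, was at 58.3 FPKM in WT and at 16.2 in Postn-DTR. The receptor was inserted into Postn itself, so loss of cells and the altered allele cannot be told apart in this value. Adipocyte and mesothelial markers were abundant in both, with an Adipoq level of 955 and 636 FPKM and an Upk3b level of 212 and 182 FPKM, as the labelled tissue would have. The WT library also held transcripts of pancreatic acinar cells. The summed FPKM of 15 such genes was 10435 for WT and 18.04 for Postn-DTR, and the part of this in the values below was not tested. With 1 library per genotype, no difference has a replicate check and no p-value is given. In whole tissue, a change in the number of cells of a type and a change in RNA per cell cannot be told apart.

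All 4 members were higher in the Postn-DTR library, and they differed widely in level. Saa3 stood at 259 FPKM in WT and at 22469 FPKM in Postn-DTR, and the ratio was 86.6. It was the only member above 1 FPKM in WT, and there it stood at rank 301 of all listed genes. In Postn-DTR it was at rank 1.

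Saa1 stood at 0.318 FPKM in WT and at 677 FPKM in Postn-DTR. Saa2 stood at 0.526 FPKM in WT and at 627 FPKM in Postn-DTR. The inducible liver-type members were thus near the limit of detection in the WT omentum and stood at ranks 154 and 164 in Postn-DTR. Saa4, the constitutive member, stood at 0.0234 FPKM in WT and at 0.453 FPKM in Postn-DTR and was near that limit in both libraries.

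**Figure D1:**
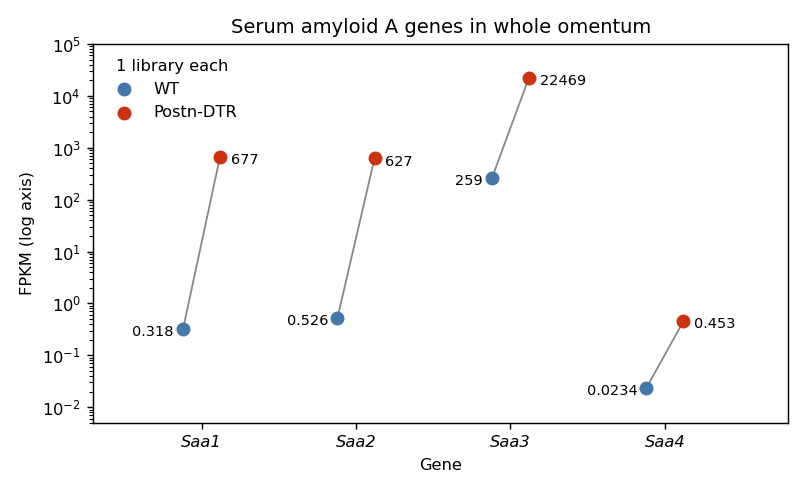
FPKM of the 4 serum amyloid A genes on a log axis, with 1 point for the WT library and 1 for the Postn-DTR library and a line joining them. Saa3 goes from 259 to 22469, Saa1 and Saa2 go from under 1 to 677 and 627, and Saa4 stays under 1.

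How far each ratio can be trusted depends on the reads behind the WT value. From the estimated depth and annotated transcript lengths, Saa3 rested on about 2095 reads in WT and 187620 in Postn-DTR. The 95% exact binomial interval of its ratio was 82.9 to 90.4. Such intervals cover counting error only, not the spread between animals, and they rest on the estimated depth. Saa1 rested on about 3 reads in WT and 6613 in Postn-DTR, for a ratio of 2131 with an interval of 729 to 10338. Saa2 rested on about 5 reads in WT and 6163 in Postn-DTR, for a ratio of 1192 with an interval of 510.4 to 3672. The intervals of Saa1 and Saa2 overlapped each other and both lay above that of Saa3. The family was picked for this rise, so nothing is read from that order. Saa1 and Saa2 together had 8 reads in WT and 12776 in Postn-DTR, and their ratio was 1544 with an interval of 783 to 3577. Saa4 rested on about 1 read in WT and 20 in Postn-DTR, for a ratio of 19.3 with an interval of 3.09 to 802.

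Saa3 was the most abundant transcript of the Postn-DTR library. The next was Apoe, which encodes apolipoprotein E, at 9479 FPKM, so Saa3 was 2.37 times higher. The fatty acid binding protein gene Fabp4 followed at 6519 FPKM and the ferritin heavy chain gene Fth1 at 6462 FPKM. In WT the highest of all genes was Cfd, an adipocyte serine protease, at 7764 FPKM. The gain of Saa3 from WT to Postn-DTR was 22210 FPKM, and it was 3.997 times that of Apoe, the second largest gain.

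**Figure D2:**
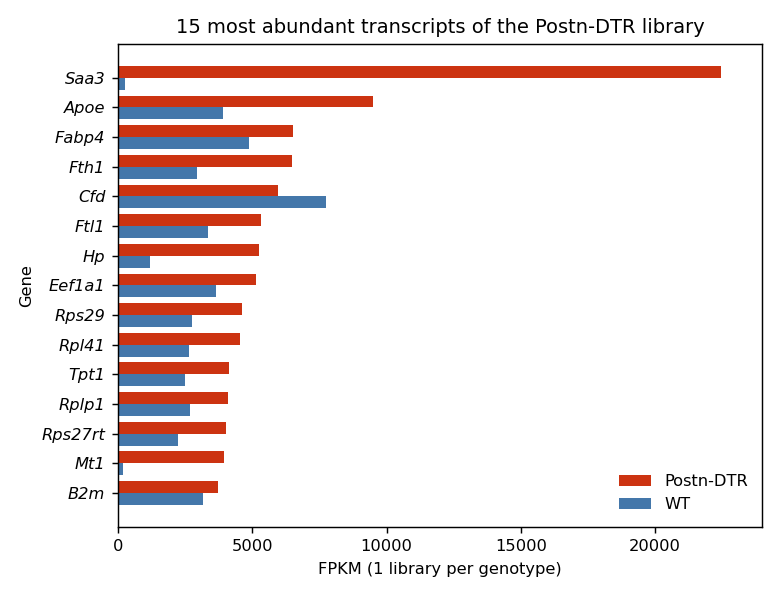
FPKM on a linear axis from 0 for the 15 most abundant transcripts of the Postn-DTR library, with a bar for the Postn-DTR library and a bar for the WT library. The Saa3 bar reaches 22469 in Postn-DTR and 259 in WT, and the next bar, Apoe, reaches 9479.

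Added together, the 4 members came to 260.4 FPKM in WT and to 23774 FPKM in Postn-DTR, and the ratio was 91.3. This was 0.0480% of all FPKM in WT and 3.54% in Postn-DTR. As a share of estimated fragments, which does not divide by the short transcript lengths, the family took 0.00904% in WT and 0.833% in Postn-DTR. The family's gain of 23513 FPKM equalled 18.1% of the difference of 129692 between the FPKM sums of the libraries. That difference is a net of gains and losses, so this is not a share of all gains.

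The makeup of the family also differed. Saa3 supplied 99.7% of the family's FPKM in WT and 94.5% in Postn-DTR. Saa1 supplied 0.122% in WT and 2.85% in Postn-DTR, and Saa2 supplied 0.202% and 2.64%. Within Postn-DTR the Saa1 level was 1.08 times the Saa2 level, and the Saa3 level was 33.2 times the Saa1 level. In WT the Saa3 level was 817 times the Saa1 level, on about 3 reads of Saa1.

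The 4 genes lie in a cluster of 42316 bases on mouse chromosome 7 (GRCm38, the same assembly as the mm10 build named in the submitters' processing notes). All 4 are protein-coding in GENCODE M21. Saa3 (ENSMUSG00000040026.8) lies at chr7:46711998-46715700 on the minus strand, and Saa4 (ENSMUSG00000040017.8) at chr7:46727998-46732603 on the minus strand. Saa1 (ENSMUSG00000074115.5) lies at chr7:46740497-46742980 on the minus strand and Saa2 (ENSMUSG00000057465.5) at chr7:46751790-46754313 on the plus strand. Saa1 and Saa2 are therefore read away from each other, with GENCODE gene starts 8810 bases apart. An unprocessed pseudogene, Saa-ps, lies between Saa4 and Saa1 at chr7:46734787-46736671 and had no row in the tables. The coding sequence is 366 bases in Saa1, Saa2 and Saa3 and 390 bases in Saa4, each from a transcript of 4 exons.

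How well reads can separate the members depends on how alike their transcripts are. The main transcripts of Saa1 (609 bases) and Saa2 (606 bases) were 94.4% identical, with 34 differing bases. Of all stretches of 75 bases in the Saa1 transcript, 4.67% also occurred in Saa2, and of stretches of 50 bases 13.2% did. Saa3 was 73.9% identical to Saa1 and 73.4% to Saa2, and its transcript shared no stretch of 75 bases with any other member. Saa4 was 65.6% identical to Saa1 and to Saa2. The study's methods give single reads of about the longer of these lengths, in a passage on sorted cells and another library kit than the one in the labels of these samples, so the read length here is not certain. At that length few reads would match both Saa1 and Saa2 exactly. Saa4 shared no stretch of 50 bases with any other member. Saa3 shared 1.78% of its stretches of 50 bases with Saa1 and none with Saa2 or Saa4. The RefSeq gene table also lists Saa1 and Saa2 as older symbols of each other, and which copy each symbol stood for in the authors' annotation could not be told from a symbol alone. Neither point changes their sum.

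The sequences just before the RefSeq gene starts are shown because Saa1, Saa2 and Saa3 were all far higher in the same library. They are the 250 bases before each RefSeq start on GRCm38.p6, 5′ to 3′ on the strand of the gene. These are chr7:46742981-46743230 for Saa1 (minus strand), chr7:46751583-46751832 for Saa2 (plus strand), chr7:46715677-46715926 for Saa3 (minus strand) and chr7:46732604-46732853 for Saa4 (minus strand). The RefSeq starts of Saa2 and Saa3 lie inside the genes as GENCODE places them above. The last bases of those stretches therefore fall within the GENCODE genes. Capitals mark letters that match a loose C/EBP pattern (TTNNGNAA) where N is any base, or a loose NF-kappaB pattern, which is GGG and CC with any 5 bases between them, on either strand.
Saa1: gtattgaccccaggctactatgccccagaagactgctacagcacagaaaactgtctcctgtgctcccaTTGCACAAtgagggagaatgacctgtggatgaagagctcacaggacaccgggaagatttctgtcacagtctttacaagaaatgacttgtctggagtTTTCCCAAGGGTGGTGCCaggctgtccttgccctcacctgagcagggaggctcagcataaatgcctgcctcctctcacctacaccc
Saa2: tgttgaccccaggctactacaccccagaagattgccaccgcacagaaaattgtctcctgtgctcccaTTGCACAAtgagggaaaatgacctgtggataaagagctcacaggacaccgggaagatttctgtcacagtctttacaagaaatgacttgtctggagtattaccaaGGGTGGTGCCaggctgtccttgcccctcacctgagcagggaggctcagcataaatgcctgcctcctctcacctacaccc
Saa3: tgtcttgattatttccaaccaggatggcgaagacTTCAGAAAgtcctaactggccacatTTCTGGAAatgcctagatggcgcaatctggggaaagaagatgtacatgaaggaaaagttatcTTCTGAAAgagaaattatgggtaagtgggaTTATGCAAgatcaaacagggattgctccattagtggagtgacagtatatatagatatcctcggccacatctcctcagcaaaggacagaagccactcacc
Saa4: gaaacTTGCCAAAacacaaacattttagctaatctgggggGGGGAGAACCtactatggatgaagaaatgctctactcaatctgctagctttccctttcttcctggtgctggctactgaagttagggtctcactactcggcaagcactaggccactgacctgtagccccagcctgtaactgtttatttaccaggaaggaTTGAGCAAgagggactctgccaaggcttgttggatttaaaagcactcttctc

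The Saa1 and Saa2 sequences were 95.6% identical over 249 aligned bases, with 11 differing bases. Saa3 was 59.4% identical to Saa1 and 62.5% to Saa2 over the aligned bases, and Saa4 was 61.4% identical to Saa1. The C/EBP pattern matched at 2 places in Saa1, 1 in Saa2, 4 in Saa3 and 2 in Saa4. It also matched in 36.8% of all 32851 RefSeq promoter sequences of this length. The NF-kappaB pattern matched at 1 place in Saa1, Saa2 and Saa4 and at none in Saa3, and in 45.8% of all promoters. In Saa1 a C/EBP match ends at the base before the NF-kappaB match. A STAT pattern (TTCNNNGAA) and the TATA box letters TATAAA matched in none of the 4, against 7.02% and 12.4% of all promoters. Only these letters were searched, so the lack of a match does not show that such an element is absent. The Saa3 sequence holds tatatata, for example, which TATAAA does not match. The patterns are loose and common, so a match is a description of letters and not of a binding site.

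The genes beside the cluster were compared with it. Of the 5 nearest genes with a row in the tables on each side, 7 of 10 averaged at least 1 FPKM across the libraries, the minimum used for every comparison of changes below. Change here is log2(FPKM + 1) in Postn-DTR less the same in WT. This scale makes the changes of low genes too small, and a change of at least 1 is called at least 2-fold. Of the 7 neighbours 1 was at least 2-fold higher and none at least 2-fold lower, where 3.88% of all 13127 genes compared were at least 2-fold higher and 3.12% at least 2-fold lower. The neighbour was Tph1, which encodes the enzyme that starts serotonin synthesis outside the brain, at 0.191 FPKM in WT and 2.93 in Postn-DTR. Tph1 passed the minimum only through the Postn-DTR library, so nothing is read from that count. Saal1, which ends 1317 bases before the cluster on the Saa3 side, had 2.71 and 2.92 FPKM. Hps5, 6152 bases beyond Saa2, had 12.3 and 9.40 FPKM. The lactate dehydrogenase gene Ldha, the most abundant neighbour, had 581 and 445 FPKM.

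**Figure D3:**
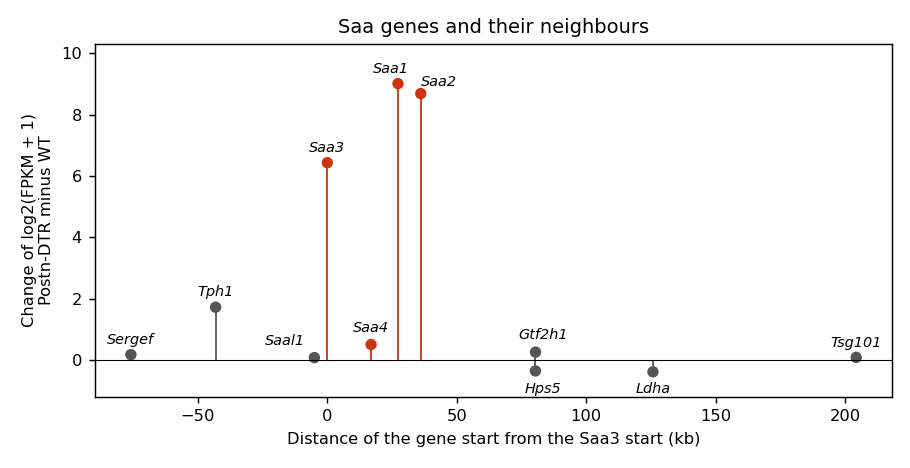
Change of log2(FPKM + 1) from WT to Postn-DTR against the distance of each gene's start from the Saa3 start in kilobases, for the 4 Saa genes (red) and the 7 neighbours that averaged at least 1 FPKM (grey). Saa3, Saa1 and Saa2 reach 6.43, 9.01 and 8.68, Saa4 reaches 0.51, and the neighbours lie between -0.39 and 1.72.

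Of the 4 members, 3 passed the minimum, and all 3 were at least 2-fold higher. The members were picked for this difference, so nothing is read from that count. Saa1 and Saa2 passed the minimum only through the Postn-DTR library. Saa1, Saa2 and Saa3 held ranks 1, 2 and 3 of all genes compared by change, at 9.01, 8.68 and 6.43. Saa4 fell under the minimum, with a change of 0.51. The median change of all genes compared was 0.02, and the range from the 5th to the 95th percentile was -0.79 to 0.87. Rescaling both libraries to the same total, without Saa and acinar genes, moved that median by -0.25. Single-gene increases smaller than this therefore have no stable direction, while decreases become larger. Under that scaling, which takes out the acinar transcripts, the change of Saa3 was 6.14.

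The genes nearest to Saa3 by change, over these 2 libraries, were Arg1, Lcn2, Serpina3m, Mt2 and Mir29c, with differences from the Saa3 change of 0.19 to 1.05. Arg1, which encodes the arginine-cleaving enzyme of alternatively activated macrophages, had 4.68 FPKM in WT and 427 in Postn-DTR. Lcn2, which encodes the iron-siderophore binding protein lipocalin 2, had 37.7 FPKM in WT and 1908 in Postn-DTR. Serpina3m, a serine protease inhibitor gene with close paralogs, had 2.03 and 138 FPKM. Mt2 and Mt1, which encode metallothioneins, had 77.4 and 190 FPKM in WT and 3543 and 3963 in Postn-DTR. The other genes among the 10 largest increases outside the family were Spp1, Hbb-bs and the microRNA genes Mir29c, Mir5098 and Mir1668. The microRNA genes were listed at 0 in WT, and Hbb-bs shares reads with its globin paralogs, so these values are uncertain.

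**Figure D4:**
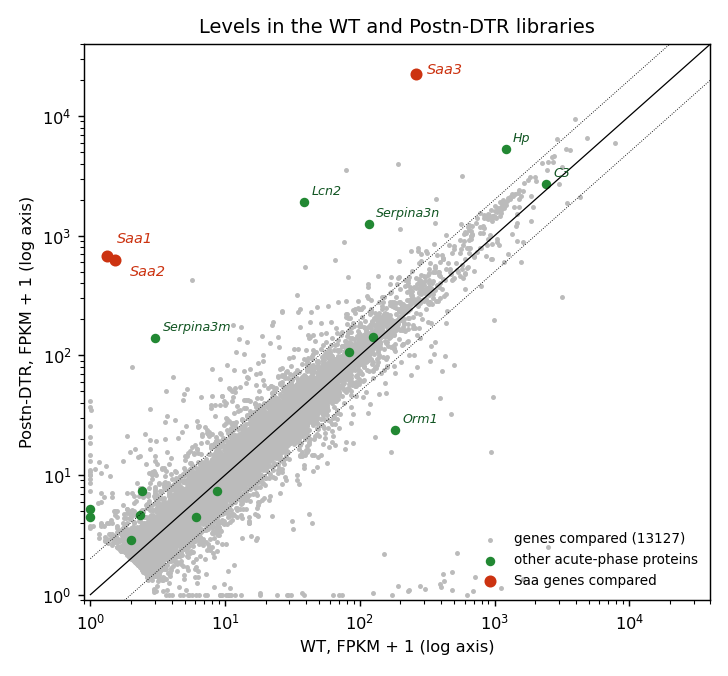
FPKM + 1 in WT against FPKM + 1 in Postn-DTR on log axes for the 13127 genes compared (grey), the other acute-phase proteins (green) and the Saa genes compared (red), with the line of equality and dotted lines at 2-fold. Saa3, Saa1 and Saa2 lie far above the dotted lines, Lcn2 and Hp lie above them and Orm1 lies below.

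Other acute-phase proteins, the plasma proteins that change with the Saa genes in inflammation, did not all share the pattern. Of 20 such genes 15 were compared, of which 7 were at least 2-fold higher, 1 was at least 2-fold lower and 7 stayed within 2-fold. Their median change was 0.99, beside 0.02 for all genes compared. Of all genes compared, 3.88% were at least 2-fold higher and 3.12% at least 2-fold lower. These shares also stand beside the counts of each list below. Without the minimum it was 0.44 over all 20, beside 0 over all 24346 genes, and with a pseudocount of 5 it was 0.45. Fgg and Hamp, at 0 in WT, passed the minimum only through the Postn-DTR library. Serpina3n, a serine protease inhibitor gene, had 116 FPKM in WT and 1248 in Postn-DTR. Hp, which encodes the hemoglobin-binding protein haptoglobin, had 1204.5 FPKM in WT and 5256 in Postn-DTR. Both were already abundant in WT, as Saa3 was. Ptx3, which encodes the long pentraxin of local inflammation, had 1.40 and 6.30 FPKM. Orm1, an orosomucoid gene of the same response, went the other way, with 182 FPKM in WT and 22.6 in Postn-DTR. Complement C3 had 2404 and 2693 FPKM and ceruloplasmin (Cp) had 81.9 and 105 FPKM.

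Several acute-phase genes known mainly from liver were at or near 0. The pentraxin genes Crp and Apcs and the fibrinogen chain gene Fgb were listed at 0 in both libraries. The other fibrinogen chain genes, Fga and Fgg, were listed at 0 in WT and at 1.61 and 4.21 FPKM in Postn-DTR. Hamp, which encodes the iron hormone hepcidin, was listed at 0 in WT and at 3.45 FPKM in Postn-DTR, on about 16.8 reads. A value of exactly 0 can be a failed estimate in such tables.

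Markers of hepatocytes, the usual source of Saa1 and Saa2, are given beside these values. The defining marker Alb had 2.17 FPKM in WT and 1.22 in Postn-DTR, and Ahsg had 0.997 and 0.601 FPKM. Apoh was listed at 0 in both, and F2 had 0.117 FPKM in WT and was listed at 0 in Postn-DTR. The 11 hepatocyte markers summed to 10.7 FPKM in WT and 36.4 in Postn-DTR, of which Apoc3 made 5.28 and 24.4, and 7 of them were under the minimum. Of the 4 compared, Apoc3, Hpd and Tat were at least 2-fold higher, and Alb was not. Hpd had 0.776 FPKM in WT and 3.68 in Postn-DTR, and Tat had 0.454 and 6.03 FPKM. Hpd and Tat passed the minimum only through the Postn-DTR library.

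Cytokines that induce Saa genes were present at low levels. Of 10 listed 5 were compared, 3 of them at least 2-fold higher and none at least 2-fold lower. The median change was 1.58 over these 5, 0.60 with a pseudocount of 5, and 0.08 over all 10 without the minimum. Il6 and Il1a were under 1 FPKM in WT and passed the minimum only through the Postn-DTR library. Il6 had 0.436 FPKM in WT and 5.58 in Postn-DTR. Il1b had 1.87 and 8.19 FPKM. Il1a had 0.412 and 3.21 FPKM, on about 16.9 and 136 reads. These were the 3 at least 2-fold higher, and they encode ligands of the IL-6 and IL-1 receptors. Tnf had 3.76 FPKM in WT and 2.26 in Postn-DTR, and Osm, an IL-6 family ligand gene, had 2.09 and 4.19 FPKM. Il17a and Il22 were listed at 0 in both.

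The receptors and adaptors for these cytokines stayed within 2-fold in 10 of 10 genes. Their median change was 0.23, which turned to -0.05 at the same total. Il6ra, the ligand-binding IL-6 receptor chain, had 15.7 FPKM in WT and 27.8 in Postn-DTR. Il1r1, the signalling IL-1 receptor, had 34.0 and 24.1 FPKM.

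Of the transcription factors tied to Saa promoters 11 were compared, with 2 at least 2-fold higher, none at least 2-fold lower and a median change of -0.05. The 2 were the C/EBP genes of the acute-phase response. Cebpd had 15.9 FPKM in WT and 68.2 in Postn-DTR, and Cebpb had 39.0 and 110 FPKM. The third family member listed, Cebpa, the C/EBP of mature adipocytes, had 134 and 106 FPKM. Stat3, which carries IL-6 signals, had 66.5 and 110 FPKM. The NF-kappaB subunit genes had smaller differences, with Rela at 42.3 and 58.5 FPKM, Nfkb1 at 40.9 and 39.3 and Nfkb2 at 42.8 and 29.6.

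Feedback inhibitors of the same pathways were at least 2-fold higher in 5 of 7 genes and at least 2-fold lower in none, with a median change of 1.44. Socs3, which blocks IL-6 receptor signalling through STAT3, had 17.8 FPKM in WT and 143 in Postn-DTR. Il1r2, the decoy receptor for IL-1, had 0.864 and 20.1 FPKM and passed the minimum only through the Postn-DTR library. Zfp36, which encodes an RNA-binding protein that destabilises cytokine transcripts, had 68.3 and 278 FPKM. Nfkbia, the inhibitor of NF-kappaB, had 87.6 and 240 FPKM, and the IL-1 receptor antagonist gene Il1rn had 1.73 and 4.51 FPKM. Il1rn, with a change of 1.01, was just past 2-fold, and the count was 4 with a pseudocount of 5, with centring on the median and at the same total. Socs1, at 8.17 and 6.66 FPKM, and Tnfaip3, at 9.13 and 16.8 FPKM, stayed within 2-fold.

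On the receiving side, 8 of 9 genes for receptors described for serum amyloid A were compared, with 2 at least 2-fold higher, none at least 2-fold lower and a median change of 0.62. Both were formyl peptide receptor genes of neutrophils and macrophages. Fpr2, known as a chemotactic receptor for serum amyloid A, had 4.71 FPKM in WT and 16.2 in Postn-DTR, and Fpr1 had 6.39 and 22.8 FPKM. Tlr2 had 12.4 and 23.5 FPKM and Tlr4 had 5.75 and 8.37 FPKM. The lipid receptor genes were higher in WT by less than 2-fold, with Cd36 at 309 and 244 FPKM and Scarb1, the HDL receptor gene, at 97.3 and 84.9 FPKM.

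Of 9 HDL and lipid partners 6 were compared, with 2 at least 2-fold higher, none at least 2-fold lower and a median change of 0.62. These were Apoe, with 3922 FPKM in WT and 9479 in Postn-DTR, and the cholesterol exporter gene Abcg1, with 6.85 and 16.8 FPKM. At the same total neither reached 2-fold. Apoa1, which encodes the main protein of HDL, was at 0.0546 FPKM in WT and 0.422 in Postn-DTR, so the abundant Saa3 transcript was not accompanied by Apoa1 transcript at a comparable level. Of 7 genes for proteases that can cleave serum amyloid A, the cathepsin genes Ctss, at 313 and 716 FPKM, and Ctsl, at 285 and 611 FPKM, were at least 2-fold higher and none was at least 2-fold lower, with a median change of 0.75. Neither of them reached 2-fold at the same total.

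Genes that handle retinol were examined because serum amyloid A can carry it. Of 15 genes 11 were compared, with 2 at least 2-fold higher, 1 at least 2-fold lower and a median change of 0.38. That median was 0.09 at the same total and 0.16 over all 15 without the minimum. Rbp4, which encodes the plasma carrier of retinol made by liver and fat, had 155 FPKM in WT and 47.8 in Postn-DTR. Its receptor gene Stra6 had 7.43 and 17.5 FPKM, which fell under 2-fold at the same total. Cyp26a1, which encodes an enzyme that breaks down retinoic acid, had 0.190 and 9.33 FPKM. Cyp26a1 passed the minimum only through the Postn-DTR library. Aldh1a2, the retinoic acid synthesis gene of the targeted FRCs, had 85.5 and 63.3 FPKM. The study cites reports of Aldh1a2 in omental mesothelial cells and fibroblasts too, so this level is not a measure of the targeted FRCs alone.

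**Figure D5:**
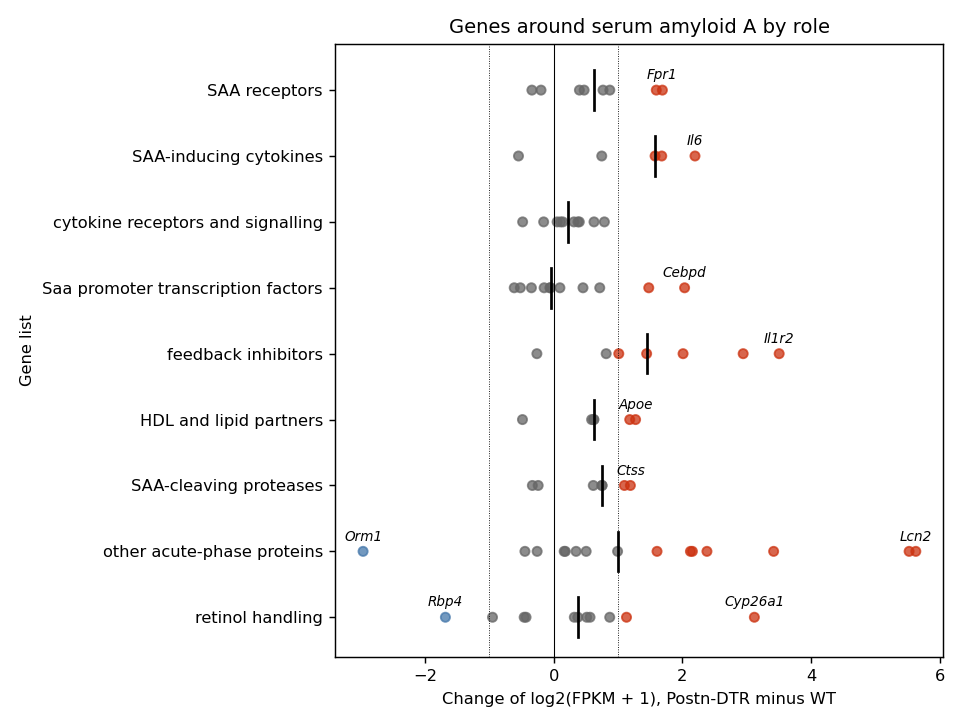
Change of log2(FPKM + 1) from WT to Postn-DTR for the genes compared in 9 lists of genes around serum amyloid A, with 1 point per gene, a black bar at the list's median and dotted lines at 2-fold; points at least 2-fold higher are red, at least 2-fold lower are blue, and the gene furthest out is named. The 7 feedback inhibitors have a median of 1.44 and the 5 inducing cytokines compared one of 1.58 (0.08 over all 10 without the minimum), and the cytokine receptors all lie within 2-fold.

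Markers of the cell types that are known to express Saa3 moved in different directions. The 8 macrophage markers all had a change above 0, with 4 at least 2-fold higher, and summed to 2928 FPKM in WT and 4725 in Postn-DTR. Lyz2 alone made 2459 and 3563 of these sums. Over all genes compared the median change was 0.02, with 3.88% at least 2-fold higher and 3.12% at least 2-fold lower. The counts of the marker lists were not repeated at the same total. Of 7 neutrophil markers in the tables, 3 were at least 2-fold higher and 2 at least 2-fold lower, and they summed to 422 and 694 FPKM. Cxcr2, 1 of the 3 higher, had 0.514 and 4.03 FPKM and passed the minimum only through the Postn-DTR library. Retnlg, of mature neutrophils, had 12.8 and 72.6 FPKM, whereas the granule genes Camp, at 33.1 and 8.98 FPKM, and Ngp, at 48.0 and 13.2 FPKM, went the other way. Of 7 adipocyte markers none was at least 2-fold higher and 1 was at least 2-fold lower, with sums of 7029 and 8123 FPKM and a median change of -0.59. Fabp4 alone made 4879 and 6519 of the adipocyte sums, and 5 of the 7 markers had a change below 0. The 5 mesothelial markers summed to 468 and 474 FPKM, the 5 fibroblast markers to 2606 and 2619, and the 6 gut epithelial markers to 19.2 and 26.5. Dcn alone made 1875 and 2152 of the fibroblast sums. The fibroblast marker Dpt, at 237 and 67.3 FPKM, was at least 2-fold lower. So was the mesothelial marker Lrrn4, at 62.7 and 29.2 FPKM. No marker of these 3 lists was at least 2-fold higher. B cell markers summed to 451 and 329 FPKM and T cell markers to 60.5 and 24.5. The part of cell numbers in the Saa3 difference was not tested.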

How the data were processed

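Total RNA of whole omenta was made into stranded TruSeq mRNA libraries, 1 per genotype. The authors deposited FPKM, 1 value per gene symbol. The submitters' processing notes list TopHat2 2.1.1, Bowtie2 2.2.8, SAMtools 0.1.18, Cuffdiff 2.2.1 and mm10. Their annotation was not given in the sources used here. Of the 24346 symbols 95.7% matched GENCODE M21. Groups came from the genotype labels.

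Changes were differences of log2(FPKM + 1) over the 13127 genes averaging at least 1 FPKM, without any test. Depth was estimated in Python 3.11.15 from low FPKM values. The value of 1 read in Postn-DTR was 0.967 of that in WT (174 of 723 genes under 0.1 FPKM in both had this ratio). Among 384 genes with 1 transcript, a WT denominator of about 23300000 fragments and a length reduced by 208 bases brought values to whole reads. Of 351 low WT values 82.3% lay within 0.1 of a whole read. They were among the values fitted, so this share is no independent check. The fit was tested on simulated data, which were made mostly of whole reads. Reads are therefore approximate, and for Postn-DTR were set from the FPKM ratio. Ratio intervals are exact binomial (scipy 1.17.1). Identities came from pairwise alignment (Biopython 1.88) of GENCODE transcripts and RefSeq promoters.

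The members and lists were chosen with earlier results of these data known. Named genes were the members, genes of the 9 role lists and 10 marker lists, the 5 neighbours on each side, the 10 largest increases and the 5 genes nearest to Saa3 by change. Fabp4, Fth1, Cfd and Postn were named after their values were seen. A listed gene is not reported here.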

Additional observations from a re-analysis of the deposited data

How the results depend on the processing

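The changes of all 4 members stayed above 0 under the 4 settings tried for them (pseudocounts of 0.1 and 5, centring on the median, and the same total without Saa and acinar genes). Saa1 became 7.0035 and Saa2 6.84 with a pseudocount of 5, which compresses low values by construction. At the same total Saa3 became 6.14 and the family sum, a log2 ratio of 6.51, became 6.23. Saa4 ranged from 0.12 to 2.16. The 509 genes at least 2-fold higher became 287 with a pseudocount of 5, 303 at a minimum average of 10 FPKM, 318 at the same total, 199 at 3-fold and 1294 at 1.5-fold. The 410 lower genes became 643 and 168 with pseudocounts of 0.1 and 5, 173 at a minimum average of 10 FPKM, 672 at the same total, 153 at 3-fold and 1160 at 1.5-fold. The share of higher among changed genes was 55.4% and became 32.1% at the same total. Of the role lists, a pseudocount of 5 left 0 cytokines, 1 HDL partner, 4 acute-phase genes and 1 retinol gene at least 2-fold higher. At the same total 0 HDL partners, 0 proteases and 1 retinol gene were at least 2-fold higher, and 2 retinol genes were at least 2-fold lower, as with a pseudocount of 0.1. The list medians also fell at the same total. They became 0.37 for receptors of serum amyloid A, 0.34 for HDL partners and 0.46 for proteases. Those of feedback inhibitors, inducing cytokines and other acute-phase genes became 1.16, 1.36 and 0.77, and that of the promoter factors -0.32.

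No paired analysis was possible because each genotype had 1 library, which also left no replicate to leave out. Saa1, Saa2 and Saa4 rest on 3, 5 and 1 estimated reads in WT, so their ratios are known only within wide counting intervals.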

Other observations

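The Saa4 values show the grain of the tables. The Saa4 ratio of Postn-DTR to WT, divided by the relative worth of 1 read in the libraries (0.967), was 20.0, a whole number, as 20 reads against 1 would give. The unrounded estimates for Saa1 and Saa2 in WT were 2.96 and 4.87 reads. Exact zeros need care in these tables: the amylase gene Amy2a5 was listed at 0 in both libraries, although 14 other acinar genes had WT levels of 125 to 2489.7 FPKM.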
